A study of Mus musculus with 2 samples.

Results

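The probes described here read intergenic noncoding regions, stretches of the mouse genome between annotated genes where an Agilent expression array looks for long noncoding transcripts. They were chosen by name: every non-control probe whose name in the scanner files is a chromosome and a coordinate range, or begins with lincRNA, was taken, except those placed on X or Y. No probe name began with lincRNA. The rule gave 15617 of the 55676 non-control probes, in 3390 regions on 19 chromosomes, and left out 577 region probes on X. Regions were read on the forward strand (7903 probes) or the reverse strand (7714 probes), and 1042 regions carried probes on both, which made 4432 region strands. A region strand held 1 to 10 probes (median 3), each probe 60 bases long and printed as 1 spot. The median region spanned 7451 bases.

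The samples were regulatory T (Treg) cells, the CD4 T cells that restrain immune responses, sorted from 5-week-old mice and lysed directly. One sample was wild-type and the other came from mice whose genotype is given as Nr4a-TKO. Nr4a receptors are nuclear receptors induced by T cell receptor signals, and the series title links them to a Treg transcriptional program. The labels leave out the animals' sex and number, the sorting markers, and which part of which Nr4a gene was altered. The sample labelled Nr4a-TKO is described by the series as Nr4a-deficient. Total RNA was labelled with Cy3 and hybridised to 1 array per genotype, so no difference below has a replicate check and no p-value is given. The number of arrays limits the precision.

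Long intergenic noncoding RNAs are transcribed by RNA polymerase II, often spliced and polyadenylated, and usually present at lower levels and in fewer cell types than mRNAs. Some act on neighbouring genes by recruiting or displacing chromatin regulators, some act at a distance or as sponges or scaffolds, and for many no function is known. A transcript outside annotated genes can also be the extended end of a gene, its upstream antisense RNA, or RNA of an enhancer. In T cells, such transcripts are known near genes of lineage and activation.

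A level here is the log2 processed signal of a probe less the array's 75th percentile over all non-control probes, so 0 marks that percentile. A difference is the level on the array labelled Nr4a-TKO minus the level on the wild-type array. Signals of different probes depend on how well each probe binds, so levels of 2 probes are not set against each other as amounts of RNA. A probe is called measured where the scanner's own call puts it well above background on both arrays, and 2-fold (1 on the log2 scale) was the size used for counting. Positions are on mm9, per the file headers.

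The sequences below belong to the regions on which the results turn: those whose several probes moved together, and the region whose strands moved apart. They are array probes as the files give them, written 5′ to 3′, with AATAAA, a common polyadenylation signal, in capitals where it occurs.
chr15:59966962-59972812 forward, probe at chr15:59971179-59971238: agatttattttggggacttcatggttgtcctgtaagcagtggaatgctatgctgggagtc
chr15:59966962-59972812 reverse, probe at chr15:59967728-59967787: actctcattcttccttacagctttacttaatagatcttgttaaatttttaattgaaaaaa
chr1:138473514-138476054 reverse, probe at chr1:138473515-138473574: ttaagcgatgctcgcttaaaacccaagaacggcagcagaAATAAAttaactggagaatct
chr2:104657075-104658840 forward, probe at chr2:104658551-104658610: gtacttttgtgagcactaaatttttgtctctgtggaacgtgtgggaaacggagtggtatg
chr19:53517903-53540753 reverse, probe at chr19:53534643-53534702: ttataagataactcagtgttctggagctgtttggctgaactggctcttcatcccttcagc
chr16:43623175-43624069 forward, probe at chr16:43623950-43624009: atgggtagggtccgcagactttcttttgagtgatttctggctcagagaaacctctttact
chr2:174088550-174109425 reverse, probe at chr2:174098013-174098072: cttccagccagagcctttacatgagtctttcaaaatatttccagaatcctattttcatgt
chr6:31007184-31007725 reverse, probe at chr6:31007262-31007321: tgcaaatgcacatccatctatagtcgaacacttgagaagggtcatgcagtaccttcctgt
chr17:12941161-12944859 forward, probe at chr17:12944580-12944639: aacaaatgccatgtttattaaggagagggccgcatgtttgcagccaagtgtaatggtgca
AATAAA, searched along the probe's own strand, stood in 611 of the 15617 region probes (3.91%), against 3365 of 25385 probes of coding transcripts (13.3%). A match is a description of these letters and not evidence of a transcript end.

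As a check of the labels, the Nr4a genes were read first. Nr4a1 stood at 6.90 in wild-type and 6.96 on the other array. Nr4a2 was 2.54-fold higher on the array labelled Nr4a-TKO and Nr4a3 was 7.04-fold lower. A probe outside the altered part of a gene cannot check a knockout, and the labels do not give that part, so that array is called by its label throughout. All 7 Treg markers and all 6 T cell markers on the list were measured. Foxp3, the factor that defines Treg cells, stood at 1.54 in wild-type and -2.57 on the array labelled Nr4a-TKO, a 17.2-fold lower signal, and 4 of the 7 Treg markers were at least 2-fold lower. The Treg list summed to a signal of 350288 in wild-type and 215712 in Nr4a-TKO, and the T cell list to 575106 and 504334. Sums in this paragraph are of processed signals not scaled between the arrays, and the brightest markers weigh most in them. Xist, the noncoding RNA of the inactive X chromosome, was not well above background in wild-type and was higher by at least 6.72 (log2) on the other array. The Y-linked Ddx3y stood at 2.24 and 0.38, well above background on both. The part of the Treg markers and of these sex-linked genes in the region differences was not tested. Of the lists for other cells, 3 of 5 macrophage and dendritic cell markers were well above background on each array, as were 4 and 3 of 5 CD8 and NK markers in wild-type and Nr4a-TKO, and 2 of 4 B cell markers on each. Of granulocyte and mast cell markers 4 of 5 passed in wild-type and 2 of 5 on the other array, with summed signals of 708 and 1582 (Ly6g 6.72-fold higher, Mpo 7.76-fold lower), and of erythroid and platelet markers 1 and 0 of the 3 that the array holds. In sorted bulk samples, fewer cells of a type and less RNA per cell cannot be told apart.

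Most region probes gave a signal, though fewer than among probes of coding transcripts. The wild-type array detected 8989 region probes (57.6%) and the array labelled Nr4a-TKO 8492 (54.4%), by the scanner's call. Probes with an NM_ accession, which read curated coding transcripts, were well above background for 73.3% and 72.3% of the 25385 on the same chromosomes, and all 55676 probes for 66.0% and 63.9%. Both arrays detected 7881 region probes, wild-type alone 1108 (7.09%), Nr4a-TKO alone 611 (3.91%) and neither 6017. The surplus of probes seen in wild-type alone was 1.81 to 1 among region probes, 1.42 to 1 among NM_ probes, 2.02 to 1 among probes that are neither and 1.70 to 1 among all probes. Counted by the brightest probe of each region strand, 82.3% and 80.4% of region strands were well above background.

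Signals of region probes were mostly dim. The median level was -4.29 in wild-type and -4.27 on the other array, close to the lowest level that the scanner called well above background (-4.89 and -4.68). The NM_ medians were -1.83 and -1.74. Levels above 0 were reached by 946 region probes in wild-type (6.06%) and 893 in Nr4a-TKO (5.72%), against 39.1% and 39.5% of NM_ probes. The highest 1% of region probes began at 3.55 in wild-type.

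With 1 probe counted per region strand, the 5 brightest region probes differed by -0.01 to 0.34 between the arrays, and bright probes more often shared letters with probes of other genes. The probe of chr17:17481706-17482457, reverse strand, led with levels of 8.70 in wild-type and 8.77 in Nr4a-TKO, and a probe that the file names Oaz1 (ornithine decarboxylase antizyme) lies within that region on the same strand. chr17:48068261-48087905, forward strand, followed at 8.42 and 8.77. chr11:22681800-22707775, reverse strand, stood at 8.60 and 8.59, and its probe shares a run of 30 bases with the probe of Rps16, a ribosomal protein gene. chr7:108209996-108216032, reverse strand, whose probe has no position in the files, stood at 8.55 and 8.56, and chr6:116123643-116124550, forward strand, at 7.95 and 8.21. In all, 200 region probes (1.28%) share a run of 30 bases in the same orientation with a probe of another name, and 16 of the 157 in the top 1% of wild-type level do (10.2%). Partners of others among those 16 include the probes of Cox5b, Hspe1, Cdc42 and of Rn45s, the ribosomal RNA precursor. For such probes these data cannot say from which of the loci the signal came.

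Region probes leaned to lower signals on the array labelled Nr4a-TKO, while NM_ probes leaned to higher ones, except where arrays were centred on spike-ins or on detected probes alone, when both leaned lower. Among the 7881 measured region probes, 140 (1.78%) passed 2-fold upward and 290 (3.68%) downward, where 2.98% and 3.07% of all 33900 measured probes did. Among 17747 measured NM_ probes the counts were 702 higher (3.96%) and 466 lower (2.63%). Lower signals thus made up 67.4% of the region probes past 2-fold and 39.9% of the NM_ probes past 2-fold. The lean was not particular to region probes: of 7268 measured probes that are neither, 1.86% were higher and 3.49% lower, and lower ones made up 65.3% of those past 2-fold. Centring on spike-ins raised these to 85.3% and 62.4%, and scaling each array on its detected probes alone (their 75th percentile) to 82.6% and 58.6%. With normexp background correction 51 region probes were higher and 137 lower (1.74%), and the NM_ share lower was 1.70%, so the excess of lower region probes over NM_ probes shrank from 1.05 to 0.04 percentage points, and the gap in higher ones from -2.18 to -1.90. The median difference was 0.01 (SD 0.51 over probes) for region probes and 0.09 (SD 0.56) for NM_ probes. The scanner's error model put the error of a single difference at a median of 0.25 for region probes and 0.20 for NM_ probes, which is not the spread between mice.

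Where only 1 array detected a probe, the difference is a bound: the bright level less the higher of the probe's own dim level and the lowest level called well above background on the dim array. Of the 1108 region probes seen in wild-type alone, 121 (10.9%) were at least 2-fold lower by this bound, where 13.4% of all such probes were. Of the 611 seen in Nr4a-TKO alone, 121 (19.8%) were at least 2-fold higher, where 25.6% of all such probes were. NM_ probes gave 15.9% and 33.4%.

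The contrast between the probe kinds depended on signal. In the class with a mean level from -2 to -1, 7.49% of 921 region probes were at least 2-fold lower and 1.19% higher, while 4.04% of 1461 NM_ probes were lower and 8.62% higher. From -1 to 0 the region shares were 7.15% lower and 1.16% higher, against 4.64% and 5.41% for NM_ probes. From 0 to 2 they were 5.49% and 1.59%, against 2.93% and 3.29%. Above 2 the region shares were 0.85% lower (3 of 354) and 1.13% higher (4), against 1.20% and 1.59%. Below -2 the region share that was lower did not exceed the NM_ share: it was 4.85% against 5.04% from -3 to -2, and 2.46% against 3.26% from -4 to -3. The share higher was smaller for region probes in all 7 classes. If NM_ probes had the signal mix of region probes, 5.54% of them would be higher and 3.24% lower.

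Base composition moved with both detection and direction. Region probes had a median GC content of 45% and NM_ probes 41.7%. Detection of region probes in wild-type went from 41.5% of those with at most 35% GC to 95.4% of those over 60%, and in Nr4a-TKO from 38.1% to 92.7%. NM_ probes went from 65.6% to 88.6% in wild-type. Over the 15617 region probes, GC content and wild-type level had a Pearson r of 0.26, and over the 25385 NM_ probes 0.07; probes share the arrays and many share a region or gene. The share of measured region probes at least 2-fold lower declined from 7.74% at up to 35% GC, through 3.68% at 40 to 45%, to 0.33% over 60%. For NM_ probes it was 2.65% at up to 35% GC and 1.67% over 60%. The part of base composition in the lower signals was not tested.

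Detection also differed with position. In mapped regions of at least 2000 bases, wild-type detection was 64.0% for probes in the first 20% of the region in its direction of reading. In the last 20% it was 55.3%. The median GC content was 45% in both, as it was over all region probes, where 45% was also the 75th percentile. Equal medians therefore do not show that base composition was alike, and its part in this gap was not tested. On 16 of the 19 chromosomes more region probes were at least 2-fold lower than higher, a count that was not made for other probes. Over the 19 chromosomes 3.68% of measured region probes were lower and 1.78% higher, against 3.07% and 2.98% of all measured probes. Chromosome 19 had 18 lower and 2 higher of 172 measured (10.5% lower), and chromosome 14 had 21 lower and 0 higher of 398. Chromosomes 8 and 15 had more higher than lower, with 13 against 7 and 11 against 6. Probes of 1 region count together here, so 10 of the 18 on chromosome 19 come from 1 region strand described below.

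The placing of regions against genes was read from probe positions, since no mm9 gene annotation was used here; exons, introns and UTRs are therefore not given. Of the 15499 mapped region probes, 15249 had an NM_ probe within 500 kb, at a median distance of 31.4 kb. Only 57 overlapped an NM_ probe (34 on its strand), and 295 lay between 2 probes of 1 gene (146 on its strand). Close to a gene, detection depended on strand. Within 2 kb downstream of the nearest gene probe, wild-type detection was 76.9% for 229 probes on the gene's strand and 48.0% for 377 on the other strand. Within 2 kb upstream it was 83.0% of 100 and 56.0% of 134. From 20 to 100 kb downstream the strands gave 53.8% and 52.7%.

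Differences of regions followed those of neighbouring genes weakly. Distances to genes here run between probes, not from a region's ends. Over 2770 region strands with a measured nearest gene, each by its brightest measured probe, the Pearson r of the differences was 0.11. It was 0.34 over 229 region strands within 5 kb on the gene's strand and 0.14 over 175 within 5 kb on the other strand. Beyond 100 kb it was 0.06 over 440. The r did not fall evenly with distance: on the gene's strand upstream it was 0.01 over 128 at 5 to 20 kb and 0.31 over 329 at 20 to 100 kb, and downstream on the other strand it was 0.28 over 69 beyond 100 kb. All these points come from 1 pair of arrays, and 1214 genes serve as neighbours of the 2770 region strands. Of the 12 region strands within 5 kb on the gene's strand that were at least 2-fold lower, the gene's own difference was below 0 for 11 and at least 2-fold lower for 4. For the 14 within 5 kb on the other strand these counts were 6 and 0, and for all 102 lower region strands with a measured nearest gene 55 and 15. Whatever the region's own difference, the gene was at least 2-fold lower for 5 of the 229 region strands, 5 of the 175 and 77 of the 2770. How many of those had a gene below 0 is not given. The 229 region strands have 165 genes as neighbours, so 1 gene can count more than once.

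Agreement among probes of 1 region strand is the nearest thing to a repeat in these data, although the probes share the RNA and the array. Of 2065 region strands with 2 or more measured probes, 145 had some probe at least 2-fold lower, and in 28 (1.36%) all were. For higher signals the counts were 88 and 6 (0.291%). Among 3499 NM_ genes with 2 or more measured probes, all were at least 2-fold higher for 66 (1.89%) and lower for 37 (1.06%). The gap between the highest and the lowest difference had a median of 0.49 over 1195 region strands with 3 or more probes, and 0.32 over 576 NM_ genes. With normexp background correction 9 region strands were lower throughout and 3 higher. The region strands described next were named because all their measured probes moved together or by the size of their largest probe, and those of the first kind were picked after their values were seen.

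The widest contrast lay on chromosome 15, where 1 region moved in opposite directions on its strands, the 1 region of 769 with both strands measured whose median differences passed 2-fold both ways. On the reverse strand of chr15:59966962-59972812 the 3 measured probes stood at 1.5, -0.09 and -0.52 in wild-type and at -1.62, -3.06 and -3.01 on the array labelled Nr4a-TKO. They were lower by 8.69-fold, 7.82-fold and 5.61-fold. Another, at -2.49 in wild-type, was not well above background on the other array, and the last was so on neither. On the forward strand the 5 probes stood between -1.42 and -0.83 in Nr4a-TKO. In wild-type 3 of them stood at -3.51, -3.91 and -4.26, which made them 6.15-fold, 7.46-fold and 8.51-fold higher, and the other 2 were not well above background there, with bounds of 4.06 and 3.47 (log2). Levels of the arrays did not overlap among the 3 measured probes of either strand. With the reverse probe at -2.49 in wild-type counted, the reverse levels did overlap, since 1 in Nr4a-TKO reached -1.62. Probes are not replicates of a genotype, and the share of all region strands without overlap was not counted. The reverse probes lie 0.671 to 1.39 kb and the forward probes 4.22 to 4.46 kb from the region's start. With normexp the medians were 4.82-fold lower and 3.73-fold higher.

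A larger region that spans it, chr15:59952094-60018666, carried 1 probe on the reverse strand at -0.10 in wild-type and -2.93 in Nr4a-TKO, 7.10-fold lower. The file places a probe of the cDNA clone AK041614 inside that larger region on the same strand, and it was 3.73-fold lower (2.03 and 0.13). The nearest coding gene probe on the left belongs to 4933412E24Rik, 121 kb from the reverse strand probe, with a difference of 0.19, and on the right none lay within 500 kb. Over all 769 regions with both strands measured the Pearson r of the forward and reverse differences was 0.01 (Spearman 0.11). No region had both strands at least 2-fold lower or both at least 2-fold higher, while 29 had a strand lower and 24 a strand higher, the chromosome 15 region among both.

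On chromosome 19 all 10 probes of chr19:53517903-53540753, reverse strand, were at least 2-fold lower. Their levels ran from -1.70 to 0.49 in wild-type and from -3.97 to -1.54 in Nr4a-TKO, with differences from -2.67 to -1.39 and a median of 3.87-fold lower (2.87-fold with normexp). The 5 probes from 0.928 to 1.42 kb after the region's start differed by -2.67 to -1.39, and the 5 from 16.7 to 17.05 kb by -2.09 to -1.49. Probes of Mirt1, a long noncoding RNA that the file names 5830416P10Rik, lie inside on the same strand and were 4.36-fold and 5.48-fold lower. On the forward strand of the region 1 of 7 measured probes passed 2-fold, at 1.38 and -1.86 (9.44-fold lower). That strand also had a probe in chr19:53535104-53536627, forward, at -0.12 and -2.44, 4.97-fold lower (3.42-fold with normexp). Dusp5, which encodes a nuclear phosphatase of ERK kinases, has the nearest coding probe on the right, 81.0 kb away, with levels of 0.93 and -1.06 (difference -1.99). Smndc1, a splicing factor on the left at 80.6 kb, differed by 0.09.

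Around Zfp281, a zinc finger transcription factor gene on chromosome 1, region strands were lower on both sides of its probe, though not every strand was. The 3 probes of chr1:138473514-138476054, reverse strand, stood at -0.30, -0.48 and -1.37 in wild-type and -3.26, -3.56 and -3.32 in Nr4a-TKO. The median was 7.77-fold lower (4.19-fold with normexp), and the Zfp281 probe is 51.0 kb away. Nearer to the gene, at 5.86 kb, a probe of chr1:138518674-138521227 was not well above background in Nr4a-TKO and at least 16.5-fold lower, and the region's other 2 probes differed by -1.95 and -1.06. Past the gene, the 7 measured probes of chr1:138528250-138538250, forward strand, differed by -1.57 to -1.35 although their wild-type levels ran from -1.84 to 1.83. On the reverse strand of that region the measured probes differed by -0.68, -0.41 and 0.20, none past 2-fold. Zfp281 itself stood at 5.06 and 3.60 (difference -1.46). Kif14, a mitotic kinesin gene on the other side, was not measured.

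On chromosome 2, a region strand between probes of Qser1 and another upstream of them were lower, as was that gene. chr2:104597982-104600748, reverse strand, holds a probe of Qser1 on its strand that was 4.40-fold lower, and its own 3 probes differed by -1.93 to -1.77 (3.51-fold lower at the median). Further Qser1 probes on that strand lie 2.90 kb to the left and 0.44 kb to the right of a probe of the region. These data cannot tell the region's signal from that of the gene. Qser1, whose product is known to shield DNA from methylation, stood at 0.40 and -1.83 by its brightest probe. Upstream and on the other strand, the 3 probes of chr2:104657075-104658840, forward, stood at -1.80, -1.03 and -1.41 in wild-type and -3.47, -3.35 and -4.16 in Nr4a-TKO, 5.00-fold lower at the median (2.99-fold with normexp). They lie 28.6 kb from Qser1 and 12.4 kb from Prrg4 (difference -0.99), and a probe of 2310047K21Rik inside was lower by at least 2.38 (log2).

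Zbtb20, a zinc finger repressor gene on chromosome 16, had 2 region strands with all 3 probes at least 2-fold lower beyond its probe on its own strand. The 3 probes of chr16:43623175-43624069, forward, 4.86 kb away, stood at -0.27, 1.1 and 0.62 in wild-type and -2.03, -0.79 and -1.31 in Nr4a-TKO, 3.70-fold lower at the median. Those of chr16:43635730-43639104, 19.9 kb away, differed by -1.86 to -1.03. A longer region that overlaps both differed by -1.51 forward and 0.20 reverse, as medians. Zbtb20 stood at 0.81 and -0.98 (difference -1.79). Tigit, an inhibitory receptor gene on the far side and the other strand, differed by 0.31.

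Imprinted loci supplied a higher and a lower region strand. The brightest probe of chr2:174088550-174109425, reverse strand, lies 27.4 kb from the probe of Gnas, which encodes a stimulatory G protein subunit, and the region contains a probe of its antisense transcript Nespas. Its 4 measured probes stood at -1.45, -1.63, -1.44 and -1.88 in wild-type and 1.09, 0.87, 1.07 and 0.72 in Nr4a-TKO. Their median was 5.74-fold higher (4.79-fold with normexp). The Nespas probe was not well above background in wild-type and higher by at least 2.27 (log2), while Gnas differed by -0.17. On the forward strand of the same region the largest probe was 6.13-fold higher, and 2 of 6 measured probes passed 2-fold. On chromosome 17 the 5 probes of chr17:12941161-12944859, forward, stood at -1.31 to 0.42 in wild-type and -2.33 to -0.81 in Nr4a-TKO and were 2.22-fold lower at the median. That median was 1.90-fold lower with normexp. The file places an Airn probe inside, which was 2.40-fold lower. Airn is the noncoding RNA whose transcription silences Igf2r on the paternal chromosome, and Igf2r, 69.3 kb away, differed by -0.78.

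Other region strands with all of 3 or more measured probes past 2-fold lay beside genes of varied function. For some the neighbours stayed within 2-fold. chr10:39405900-39406539, reverse, was 3.50-fold lower at the median (1.68-fold with normexp) between Traf3ip2 (difference 0.15) and Rev3l (-0.08). chr14:52874069-52877398, reverse, was 3.46-fold lower between Chd8 (-0.21) and Rab2b (-0.29). chr1:85304494-85305390, reverse, was 2.99-fold lower (1.79-fold with normexp), while C130026I21Rik at 51.0 kb differed by 0.69. chr11:112905201-113062945, reverse, was 3.55-fold lower at the median and holds a probe of the noncoding 2610035D17Rik that was 2.87-fold lower, while another of that RNA was 1.59-fold lower. Its coding neighbours Sox9, a developmental transcription factor gene, and Slc39a11, a zinc transporter gene, have probes over 200 kb from the region's probe. chr12:15735906-15798506, reverse, was 3.24-fold lower, with a probe 1.93 kb from one of Trib2, a pseudokinase gene, which differed by -1.32. chr14:62280837-62283960, reverse, was 2.59-fold lower, and the near chr14:62294849-62301165, which holds a probe of the noncoding Dleu2 with a difference of -0.27, was 2.01-fold lower over 2 probes. Of the higher ones, chr6:31007184-31007725, reverse, had wild-type levels of 0.81, 0.94 and -0.89 and Nr4a-TKO levels of 2.42, 2.53 and 0.77, 3.05-fold higher at the median. Its nearest coding probe, of Klf14, was 101 kb away and not measured. chr8:34646787-34680312, forward, had 5 of 5 probes higher, 2.90-fold at the median (1.89-fold with normexp), 33.0 kb from Tex15, a germ cell gene that differed by 1.74.

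The largest differences, ranked by the brightest measured probe of each region strand, were often not shared by other probes of that strand. The first, in chr1:162933979-162944379, forward, went from -4.41 in wild-type to -0.92 in Nr4a-TKO, 11.2-fold higher. The region's other measured probe differed by -0.52 and the remaining 6 were detected by neither array. In chr6:100514596-100520846, reverse, 1 of 5 measured probes was 9.24-fold higher while the lowest of the others differed by -1.24. chr12:88235624-88264465, forward, had 1 of 3 measured probes 7.75-fold higher, and chr3:146629425-146649125, reverse, 1 of 2 at 7.52-fold. The differences in a further pair of the 10 rested on 1 measured probe, in chr13:114486580-114532455 (6.39-fold) and chr9:46664272-46664689 (6.15-fold), both forward. Of their nearest genes, Serpinc1 differed by 0.66, Shq1 by 0.11 and Irf2bpl by 0.24, and Ttll7, Hspb3 and Gm4791 were not measured.

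Among the largest lower ones, a probe of chr4:21683562-21694344, reverse, went from -0.68 to -4.07, 10.5-fold lower, while the other measured probe of that region differed by 0.24. It lies 0.45 kb from a probe of Tstd3 (difference 0.58). chr1:36094831-36095159, reverse, 9.20-fold lower, and chr19:38392796-38398771, forward, 5.75-fold lower, likewise had 1 of 2 measured probes past 2-fold, and chr1:90149027-90152254, forward, had 1 of 3, at 5.05-fold. A probe of chr4:46583780-46614788, reverse, the only one measured there, went from -0.16 to -2.88, 6.59-fold lower. It lies 27.6 kb from Coro2a, an actin-binding coronin gene that differed by -2.58, and 33.3 kb from Tbc1d2, which differed by 1.60. With normexp the folds of the 20 ranked probes were smaller, 4.65-fold for the first higher one and 4.34-fold for the first lower one. All 20 stayed past 2-fold under the 7 other scalings or background corrections tried.

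The largest bounds differed in their backing by other probes. A probe of chr1:161992257-161992963, forward, stood at 1.61 in wild-type and was not well above background in Nr4a-TKO, at least 78.6-fold lower. The other 2 probes of that region strand, at 0.81 and 1.12 in wild-type, were likewise detected there alone, with bounds of -5.50 and -5.81 (log2). The first probe lies 22.3 kb from Tnn, which was not measured. Probes of chr8:49237358-49246495, forward (at least 14.7-fold lower), chr12:8401014-8407169, forward (13.0-fold) and chr15:90074814-90087814, reverse (11.9-fold) followed the Zfp281 probe given above. The chromosome 8 region strand had no measured probe to set beside it. The 1 measured probe of the chromosome 12 region strand differed by -0.11, and that of the chromosome 15 one by -0.10. In the other direction, apart from the chromosome 15 region, the largest bounds were at least 14.6-fold higher in chr5:109156118-109156422, forward, at least 12.5-fold in chr17:87492112-87506638, reverse, 12.4-fold in chr13:74642700-74701900, reverse, and 10.3-fold in chr3:35782698-35789932, forward. The chromosome 5 and chromosome 3 region strands had no measured probe to set beside these. On chromosome 17 the 1 measured probe differed by -0.12, and on chromosome 13 the 3 measured probes differed by 0.13 to 0.49. In the chromosome 5 region strand a probe seen in wild-type alone had a bound of -1.03 (log2), the opposite way.

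A list of 80 T cell loci was also read. Of these, 27 were the nearest coding neighbour, on either side, of some region probe. Among the 61 measured region strands beside them, each by its brightest measured probe, 8 (13.1%) were at least 2-fold lower and 1 (1.64%) higher, and among all 3436 measured region strands 120 (3.49%) were lower and 63 (1.83%) higher. The median difference was -0.03 beside these loci and 0.02 over all. The list was drawn up with earlier results of these data known and the 61 region strands include several beside the same gene, so the share is a description.

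Beside Ikzf2, which encodes the Treg factor Helios, 4 of the 5 measured probes of chr1:69531191-69570566, reverse strand, were at least 2-fold lower. Their wild-type levels were -3.45, -1.97, -0.45, -0.18 and -0.98, and their Nr4a-TKO levels -3.64, -4.26, -1.99, -2.15 and -2.66. The brightest was 3.92-fold lower (2.82-fold with normexp) and lies 14.97 kb from the Ikzf2 probe, on the same strand. chr1:69555180-69555559, nested in it, was 2.57-fold lower at its brighter probe (1.81-fold with normexp). Ikzf2 itself went from 0.90 to -0.72.

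Beside Socs2, a suppressor of cytokine signals, the 3 probes of chr10:94870971-94871658, reverse, were all at least 2-fold lower, the brightest going from 2.06 to 0.86. chr10:94848446-94874121, on the opposite strand 0.998 kb from Socs2, had 1 of 3 measured probes past 2-fold (2.58-fold lower, or 1.77-fold with normexp). Another probe there, detected in Nr4a-TKO alone at -2.49, moved the other way with a bound of 2.40 (log2). Socs2 differed by -0.84. chr6:99472981-99484210, reverse, beyond Foxp1, a forkhead factor of T cell quiescence whose probe is 362 kb away, had 2 of 4 measured probes past 2-fold, the brightest at 3.08-fold lower, and Foxp1 differed by -0.81. The nearer Eif4e3, a translation factor gene on the other side at 100.7 kb, differed by 0.74. A probe 4.68 kb from Prdm1, the gene of Blimp-1, was 2.29-fold lower with normexp giving 1.40-fold, and Prdm1 differed by -0.72. The other measured probe of that region strand differed by -0.16. In chr11:53574182-53574644, reverse, the 1 measured probe was 2.25-fold lower. Its neighbour on the list is Il5, 35.9 kb away and not measured. Irf1, which is not on the list, lies nearer at 16.2 kb and differed by -0.10. Between Bcl2l11 and Anapc1, over 200 kb from either, 1 of 3 measured probes passed 2-fold, at 2.41-fold lower.

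The 1 region strand beside a T cell locus that was higher moved against its gene. A probe of chr8:74820025-74833350, forward, went from 4.07 in wild-type to 6.004 in Nr4a-TKO, 3.81-fold higher, while the other probe of that region stood at 1.94 and 2.09. The nearest coding probe, 16.5 kb away on the same strand, is of Klf2, a quiescence factor that drives T cell exit from lymphoid organs. Klf2 went from 4.62 to 0.76 (difference -3.86).

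Long noncoding RNAs with names were read on their own probes, which are no members, to set beside the regions. Of 24 on a list, 20 were on the array and 19 were measured. Malat1 (2.98-fold), H19 (5.50-fold) and Snhg5 (2.03-fold) were higher, and Mirt1 (4.36-fold), Kcnq1ot1 (2.11-fold) and Dleu2 (2.03-fold) were lower. The other 13 measured, among them Neat1, Gas5 and Pvt1, stayed within 2-fold. Another Dleu2 probe was only 1.20-fold lower, and the Mirt1 probe is 1 of those inside the chromosome 19 region above. Of all measured probes on the arrays, 2.98% were at least 2-fold higher and 3.07% lower.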

How the data were processed

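The authors deposited spot intensity values of 1-colour arrays, with positions on mm9; per the file headers the scans were read by Agilent Feature Extraction (version 10.10.1.1). A deposited table of log2 values differs from log2 of the processed signal by 1 constant an array (column medians -3.54 and -3.53); how that constant was set stays unknown, and it was used as an alternative. Control and outlier spots were left out, log2 signals were averaged per probe, the 75th percentile of each array was subtracted, and samples were grouped by the labelled genotype. Both arrays share 1 slide and 1 scan time. Where nothing says how many mice stand behind a sample, differences cover only these 2 arrays. Neighbours were the nearest NM_ probes within 500 kb, each gene by its brightest probe, with symbols through the accession for 25023 of 25385 NM_ probes from a RefSeq table (GRCm38.p6, names only). Regions were named by the 10 largest differences of a region strand's brightest measured probe and 5 largest bounds each way, the 5 brightest and those past 2-fold beside T cell loci, with 1 probe per region strand; regions on chromosome 18 were counted but not named, 1 further ranked region is not reported here, and any further region in the text was chosen with its values in view. The members and lists were chosen with earlier results of these data known. Counting was tested on simulated data for this comparison, where all 200 planted 4-fold changes among 7881 probes were recovered (100.0%). The simulated noise came from the scanner's error model alone and was small beside a 4-fold change, so such recovery was all but set in advance. It checks the counting only and says nothing of the spread between mice. Alternatives are given below. Computation used Python 3.11.15 (numpy 2.4.6, pandas 2.3.3, scipy 1.17.1); normexp ran in limma 3.58.1 (R 4.3.3).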

Additional observations from a re-analysis of the deposited data

How the results depend on the processing

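No paired analysis was possible because each genotype has 1 array; for the same reason leaving out an array, or the slide as a block, gives no value. No name begins with lincRNA, so members of that kind alone give no value, and names beginning with chr are the members as reported. Alternatives applied to the comparison with NM_ probes, to probes of 1 region strand, to opposite strands and to neighbours, and the one without probes that share a 30-base run, were chosen after seeing the data. The cause of each move was not tested, beyond what the setting itself does to the probes counted. Dim probes limit the precision: the median region level is near the floor of detection.

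Median levels in wild-type and Nr4a-TKO were -2.92 and -2.85 with normexp, -0.74 and -0.73 on the array median, -6.14 and -6.30 on the 75th percentile of detected probes alone, -5.08 and -5.30 on spike-ins, and -3.13 and -3.13 with 1 probe per region strand. Detection was 82.3% and 80.4% with 1 probe per region strand and 86.1% and 84.6% by the scanner's positive and significant call. Counts at least 2-fold higher and lower were 51 and 137 with normexp, 93 and 441 on detected probes, 84 and 487 on spike-ins, 884 and 1056 with no filter, and 63 and 119 with 1 probe per region strand. The count higher was 77 with the stricter filter. Past 1.5-fold there were 504 higher and 788 lower, past 3-fold 47 and 96. The median difference of region probes was 0.056 with normexp and 0.074 with no filter, and turned to -0.00011 on the array median, -0.17 on detected probes, -0.0028 with quantile normalization, -0.22 on spike-ins and -0.012 with loess. Spike-ins moved the median of all measured probes by -0.23 and scaling on detected probes by -0.18, so those shifts are of all probes.

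The share lower, region less NM_ probes, was 0.037 points with normexp, 1.72 on detected probes, 1.98 on spike-ins, 2.24 with no filter, 3.55 at 1.5-fold, 0.18 at 3-fold and 0.44 within signal classes. The share higher was -1.56, -1.47, -0.54, -3.23, -0.91 and -3.76 points in those settings other than normexp. Region strands with all probes higher numbered 3 with normexp, on detected probes, on spike-ins and at 3-fold, 10 with no filter and 21 at 1.5-fold. With all lower there were 9 with normexp, 45 on spike-ins, 65 at 1.5-fold and 6 at 3-fold. The median gap was 0.30 with normexp, 0.98 with no filter and 0.39 with the stricter filter. Regions with strands past 2-fold both ways numbered 2 with no filter and 4 at 1.5-fold. The r with neighbouring genes was 0.045 with no filter. Single named probes kept 193 values and moved in 45, with no called one turned. The other 86 values kept their direction, except the r of opposite strands (-0.0088 with normexp), and stayed within 1.5 times, for counts, or within the 95% interval of the main value. That interval was taken over probes or region strands of the 1 pair of arrays, many of which share a region. It served only as a yardstick for a move and is not the uncertainty of a difference between genotypes.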

Other observations

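The 577 region probes on X were kept apart. They were well above background for 59.97% in wild-type and 57.9% on the array labelled Nr4a-TKO. Of the 312 measured, 2 (0.641%) passed 2-fold upward and 10 (3.21%) downward, where 2.98% and 3.07% of all measured probes did. The share lower was thus near that of all probes. The median difference was 0.03, and 34 were seen in wild-type alone against 22 in Nr4a-TKO alone. Of the 10 lower ones, 4 lie on the reverse strand between positions 92119890 and 92150762 of X, in 3 regions, with differences of -1.32, -1.07, -1.05 and -1.004; they were picked out after their values were seen.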
